A study of Mus musculus with 20 samples.

Results

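Papillomas were compared with hyperplastic skin in the chemical skin carcinogenesis model, over every small RNA feature in a table of read counts. All samples came from FVB/N mice, an inbred albino strain. Both groups are biopsies of skin treated with DMBA, a mutagen that starts tumours, and PMA, a phorbol ester that promotes them. Hyperplastic skin is thickened and without a tumour, and a papilloma is a benign epithelial outgrowth. The comparison used 10 of the 20 libraries, the 5 of hyperplastic skin (numbered 1, 2, 5, 7 and 8) and the 5 of papilloma (numbered 1, 3, 4, 5 and 6). The other libraries are 5 of healthy skin, treated with the solvent acetone, and 5 of cutaneous squamous cell carcinoma (cSCC), also from DMBA/PMA-treated mice. Their levels stand beside some results as background. The labels give neither age nor sex nor length of treatment, and do not say that each biopsy came from its own mouse. The p-values therefore measure the spread between these samples, which may be in part technical.

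A microRNA (miRNA) is a short RNA cut from a hairpin, and it holds down the messenger RNAs that pair with its seed, bases 2 to 8. Both arms of a hairpin can give a mature miRNA, named 5p and 3p, and one arm usually dominates. In stratified epithelium miR-205 and miR-203 are abundant in keratinocytes, miR-21 and miR-31 are known for rising in squamous tumours, and miR-1, miR-133 and miR-206 mark striated muscle, which mouse skin holds as a thin sheet under the fat. A biopsy mixes all of these cells, so fewer cells of a type and less RNA per cell cannot be told apart in any result given here.

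Some of the mature miRNAs that carry the main differences are shown with their seeds in capitals, so that shared seeds can be seen. Sequences and positions are from RefSeq on build GRCm38.p6, and 231 of the 292 mature miRNAs tested matched an entry there. Some of the largest rises in papilloma, among them miR-5115 and miR-135b-5p, are not shown. Of those that rose, the following are shown as examples of large or abundant rises:
miR-21-5p: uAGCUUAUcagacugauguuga
miR-21-3p: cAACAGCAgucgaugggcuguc
miR-31-3p: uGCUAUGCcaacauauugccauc
miR-7a-5p: uGGAAGACuagugauuuuguugu
miR-138-5p: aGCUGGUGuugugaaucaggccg
miR-223-3p: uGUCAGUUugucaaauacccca
miR-3473d: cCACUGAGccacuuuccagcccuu
miR-3473c: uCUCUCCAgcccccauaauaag
The arms of miR-21 lie at chr11:86584120-86584141 (minus strand) and chr11:86584082-86584103 (minus strand), in an exon of Vmp1 on the same strand. miR-31-3p lies at chr4:88910577-88910599 (minus strand), in an exon of a long non-coding RNA. miR-7a-5p has entries at chr7:78888295-78888317 (plus strand) and chr13:58392841-58392863 (minus strand), of which the first lies between genes and the other in an intron of Hnrnpk. miR-138-5p has entries at chr8:94324312-94324334 (plus strand) and chr9:122682898-122682920 (plus strand), and miR-223-3p lies at chrX:96242884-96242905 (plus strand), all in exons of non-coding transcripts. miR-3473d lies at chr8:111016498-111016521 (minus strand), in an intron of Ddx19b, and miR-3473c at chr1:191998602-191998623 (minus strand), in an exon of Traf5. No seed is shared among the miRNAs in this group of 8.

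Of those that fell, the following are shown because they had large falls or belong to families with several falls:
miR-133b-3p: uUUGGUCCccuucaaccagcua
miR-206-3p: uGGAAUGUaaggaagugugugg
miR-29c-5p: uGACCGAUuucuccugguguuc
miR-29c-3p: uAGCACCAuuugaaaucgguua
miR-204-5p: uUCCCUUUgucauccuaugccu
miR-101a-3p: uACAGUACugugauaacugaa
miR-101c: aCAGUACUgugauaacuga
miR-26a-5p: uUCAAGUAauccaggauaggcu
miR-99a-3p: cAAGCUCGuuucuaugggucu
miR-338-3p: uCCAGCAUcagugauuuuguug
miR-206-3p at chr1:20679055-20679076 (plus strand) and miR-133b-3p at chr1:20682834-20682855 (plus strand) lie in exons of the same long non-coding RNA. The arms of miR-29c lie at chr1:195037562-195037583 (plus strand) and chr1:195037600-195037621 (plus strand), in an exon of a non-coding transcript and opposite to an exon of Cd46. miR-204-5p lies at chr19:22750610-22750631 (plus strand) in an intron of Trpm3, miR-338-3p at chr11:120014781-120014802 (minus strand) in an intron of Aatk, and miR-99a-3p at chr16:77598977-77598997 (plus strand) in an intron of Mir99ahg. The entries of miR-26a-5p at chr9:119031811-119031832 (plus strand) and chr10:126995543-126995564 (plus strand) lie in introns of Ctdspl and Ctdsp2. miR-101a-3p lies at chr4:101346957-101346977 (minus strand), in an exon of a long non-coding RNA, and miR-101c at chr9:3038680-3038698 (minus strand), between genes. The 19 bases of miR-101c lie whole within the 21 bases of miR-101a-3p, from base 2 on, so the same reads could have been counted for both although their seeds are written differently.

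Papilloma libraries were the shallower ones without overlap. They held 1060615 to 2370313 counts of mature miRNAs, against 3142228 to 6904298 in hyperplastic skin, 2884177 to 4921719 in healthy skin and 1614803 to 2903657 in cSCC. Small counts should scale with depth, but they did not. The sum over the 590 rarest mature miRNAs, those averaging 20 counts or fewer, was 4096 to 5346 in papilloma and 3226 to 6911 in hyperplastic skin. As a share of mature miRNA counts they made up 0.178% to 0.504% and 0.0684% to 0.152%. Features that do not scale with depth come out higher in shallow libraries once counts are scaled, so the comparison was restricted to features with a mean of at least 50 CPM. CPM relate a count to the mature miRNA counts of its library, adjusted by TMM factors from abundant mature miRNAs. That left 579 of 2127 features, of which 292 are mature miRNAs. The mean was taken over the 10 libraries together, so a feature scarce in 1 group could pass on its level in the other. For example, miR-5115 averaged 17.2 CPM in hyperplastic skin and 244 CPM in papilloma, and miR-1a-2-5p averaged 109 and 26.8 CPM. The minimum therefore does not keep out a scarce feature that is high in the shallower papillomas. Its part in the rises was not tested.

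Of these 579 features, 135 (23.3%) differed between papilloma and hyperplastic skin (edgeR quasi-likelihood test, Benjamini-Hochberg adjusted p under 0.05), 71 (12.3%) higher and 64 (11.1%) lower in papilloma. Among mature miRNAs 43 of 292 (14.7%) were higher and 35 (12.0%) lower, and among the other classes 28 of 287 (9.76%) were higher and 29 (10.1%) lower. Rises were the larger changes, with a median of 1.78 (log2) over the 43 mature miRNAs, of which 36 changed by at least 1. The 35 falls had a median size of 0.84, and 14 of them reached 1. A mean of 1000 CPM in a group was reached by 18 of the 35 that fell and 8 of the 43 that rose. In 101 features (17.4%) the CPM of the groups did not overlap at all, with 59 (10.2%) higher and 42 (7.25%) lower in papilloma.

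**Figure D1:**
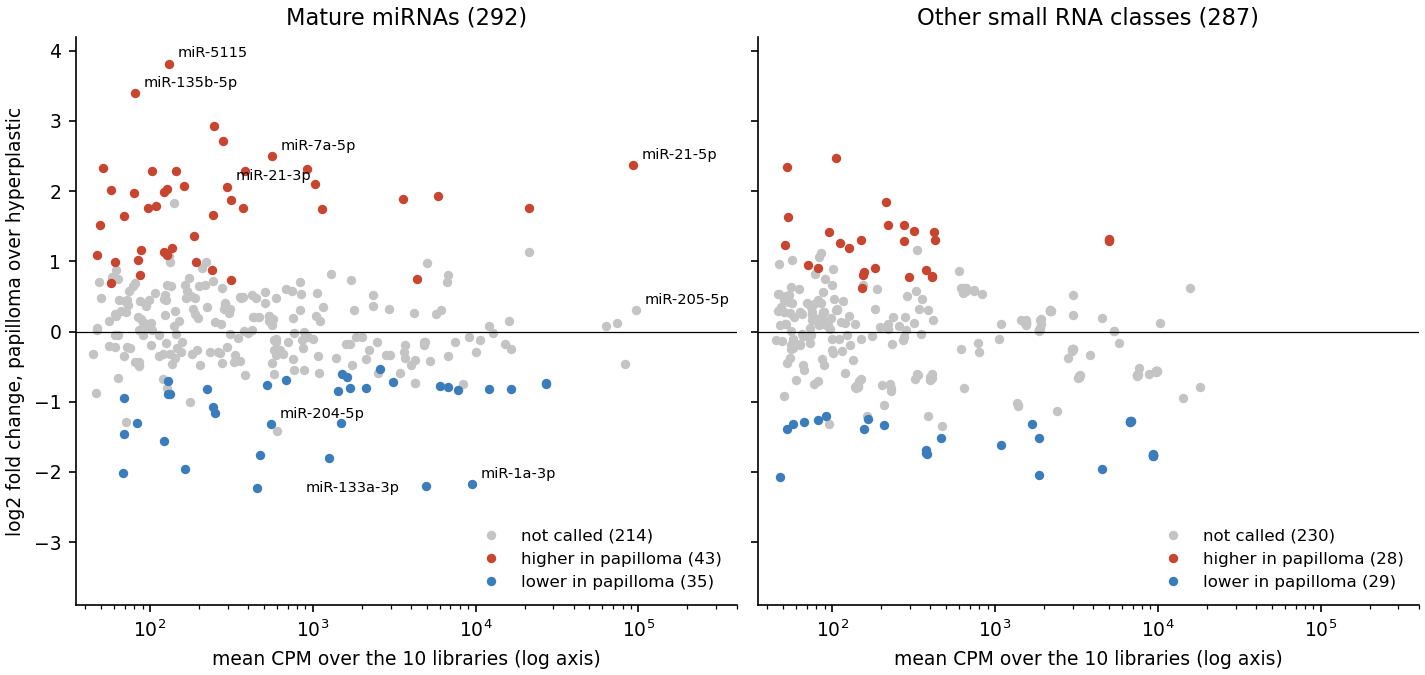
Log2 fold change of papilloma over hyperplastic skin (vertical axis) against the mean CPM over the 10 libraries (horizontal log axis), 1 point per feature, mature miRNAs on the left and other classes on the right. The 43 mature miRNAs that rose include miR-21-5p at the far right and many of low abundance, while the 35 that fell reach down to -2.22.

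The number of calls rested on single libraries in part. It was 46 higher without hyperplastic 1 or without papilloma 4, and 28, 29 and 30 lower without papilloma 6, papilloma 5 and hyperplastic 8. With mature miRNA totals and no TMM factor, which shifted the median log2 fold change by -0.17, the split was 46 higher and 84 lower. Hyperplastic 7 and 8 stood apart from the other hyperplastic libraries in connective tissue miRNAs. Without that pair 29 features were higher and 8 lower, and the 8 were all among the 64.

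The largest rises of known tumour miRNAs came from the list of miR-21, miR-31 and miR-135. Of its 5 tested members 4 rose, where 14.7% of mature miRNAs tested did. The members tested were the arms of miR-21 and of miR-31, and miR-135b-5p. All lists named here were written with earlier results of these data known, so such shares are no independent support. The list's median log2 fold change was 2.06, against 0.08 over all mature miRNAs tested. miR-21-5p, which represses Pdcd4 and other growth inhibitors, was the most abundant mature miRNA in every papilloma library. It stood at 180518, 140389, 163979, 156251 and 137047 CPM in papilloma 1, 3, 4, 5 and 6, and at 34739.6, 27535, 41722, 7336 and 38726 CPM in hyperplastic 1, 2, 5, 7 and 8. The lowest papilloma was more than 3 times the highest hyperplastic library, and hyperplastic 7 lay far under its own group. The log2 fold change was 2.37 ± 0.36 (SE, adjusted p = 0.000289, edgeR). Fold changes, rises and falls are on the log2 scale throughout, with their SE after ± where given. Healthy skin held 24420.5 ± 10718 CPM (SD, n = 5), close to the 30012 ± 13746 CPM of hyperplastic skin.

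The other arm of the same hairpin, miR-21-3p, stood at 559.6, 281, 518, 439.9 and 616 CPM in papilloma and 103, 103, 134, 92.5 and 145 CPM in hyperplastic skin, again without overlap. It rose by 2.06 ± 0.28 (log2, SE, adjusted p = 7.84e-05). Its deposited counts just failed to overlap between the groups, with 666 in papilloma 4 and 662 in hyperplastic 7, although the papilloma libraries were shallower. With no scaling for depth miR-21-3p did not pass (0.59, edgeR, adjusted p = 0.117). miR-135b-5p, known to target the Wnt pathway inhibitor Apc, was scarce in hyperplastic skin at 8.63, 11.6, 12.5, 16.1 and 21.1 CPM. In papilloma it stood at 47.3, 18.7, 323, 169 and 181 CPM. Papilloma 3 lay within the range of hyperplastic skin, and the other 4 papillomas lay above it by different amounts. Papilloma 4 and 6, the shallowest of the 10 libraries, were the highest. The log2 fold change was 3.39 ± 0.63 (adjusted p = 0.00123). Without papilloma 4 and 6 the mean of miR-135b-5p fell under the minimum of 50 CPM.

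Of the arms of miR-31, a miRNA raised in wound keratinocytes and squamous tumours, only miR-31-3p passed the test. miR-31-3p stood at 16280.1, 4836, 10097, 7047 and 8069 CPM in papilloma and 3711, 2799, 3659, 1088 and 929 CPM in hyperplastic skin, without overlap, and rose by 1.93 ± 0.50 (adjusted p = 0.00993). Without hyperplastic 7 and 8, its lowest libraries, the log2 fold change was 1.42 (adjusted p = 0.107). The abundant arm, miR-31-5p, ranged from 8980 to 55756 CPM in papilloma and from 2450 to 30531 CPM in hyperplastic skin, with wide overlap, and its log2 fold change of 1.14 ± 0.58 did not pass (adjusted p = 0.182). Without hyperplastic 5, its highest hyperplastic library, it passed with 1.68. A difference between the arms was not shown, since the log2 ratio of 5p to 3p counts did not pass (-0.65, limma, adjusted p = 0.321).

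miR-7a-5p, which represses Egfr and other parts of growth factor signalling, rose without overlap. It stood at 1166, 750.3, 1245, 862 and 747 CPM in papilloma and 189, 165, 193, 126 and 168 CPM in hyperplastic skin. Every papilloma lay several-fold above every hyperplastic library, and healthy skin, at 145 ± 60.0 CPM (SD, n = 5), lay with hyperplastic skin. The log2 fold change was 2.50 ± 0.49 (adjusted p = 0.00156). miR-138-5p, best known from neurons, where it limits dendritic spine size, stood at 9619, 6122, 6118, 4375 and 2066 CPM in papilloma and 1034, 1321, 2211, 1344 and 1759 CPM in hyperplastic skin. Only papilloma 6 fell within the hyperplastic range. Its rise of 1.88 ± 0.47 (adjusted p = 0.00699) was the largest among the 3 tested miRNAs of the neural list, and it did not pass without hyperplastic 7 and 8 (1.89, adjusted p = 0.0563). Of that list miR-338-3p fell and miR-128-3p had a log2 fold change of -0.16.

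miR-223-3p, the miRNA of neutrophils and other myeloid cells, stood at 13171, 16956, 24238, 19042 and 90762 CPM in papilloma and 6972, 6987, 9586, 13159.5 and 11749 CPM in hyperplastic skin. The groups just failed to overlap, and papilloma 6 was several times above every other papilloma. The log2 fold change of 1.76 ± 0.43 (adjusted p = 0.00658) was 0.80 (adjusted p = 0.117) without papilloma 4 and 6. With any 1 of the 10 libraries left out miR-223-3p still passed (0.94 to 1.94, adjusted p up to 0.0334). It also passed without hyperplastic 7 and 8 (2.04, adjusted p = 0.0286), but not with edgeR's default filter (0.99, adjusted p = 0.0530). The other 8 tested miRNAs of the leukocyte list did not pass, with log2 fold changes from -0.44 for miR-146a-5p, a brake on NF-kB signalling, to 0.66 for miR-511-3p, a miRNA of macrophages. The list's summed level was 18956 to 98202 CPM in papilloma and 12218 to 20122 CPM in hyperplastic skin, and apart from papilloma 6 its highest value was 31066 CPM.

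The hypoxia list holds the arms of miR-210, which the HIF factors switch on when oxygen is low. miR-210-5p stood at 534, 266, 656, 543 and 461 CPM in papilloma and 137, 124, 192, 98.5 and 116 CPM in hyperplastic skin, without overlap, and rose by 1.88 ± 0.45 (adjusted p = 0.00602). miR-210-3p, the abundant arm, stood at 9273, 5223, 8679, 7274 and 2829 CPM and 1820.1, 4831, 3888, 1544 and 4845 CPM. Papilloma 6 was inside the hyperplastic range and the log2 fold change of 0.98 ± 0.41 did not pass (adjusted p = 0.1). The log2 ratio of 5p to 3p counts of miR-210 did not pass either (0.84, limma, adjusted p = 0.224). In the miR-17-92 list, a set of clusters that drive the cell cycle, the median was 0.45, against 0.08 over all mature miRNAs tested. Where 14.7% of mature miRNAs tested rose, of the 15 tested here only miR-92a-3p passed. It stood at 6056, 5582, 5611, 5259 and 4803 CPM in papilloma and 4039, 3687, 3251, 2693 and 2583 CPM in hyperplastic skin. The groups were apart by a small margin, with 0.75 ± 0.24 (adjusted p = 0.0306), and its call was lost without any 1 of hyperplastic 1, 2, 5, 7 and 8 or papilloma 1, 4 and 5. In the imprinted Dlk1-Dio3 locus, which holds a large miRNA cluster, miR-494-3p (1.16 ± 0.26, adjusted p = 0.00384) and miR-409-3p (1.13 ± 0.32, adjusted p = 0.0170) were the 2 of 16 that rose. That share is near the 14.7% of mature miRNAs tested that rose, and the list's median was 0.46. miR-409-3p lost its call without hyperplastic 1. Without hyperplastic 7 and 8 miR-210-5p (1.68, adjusted p = 0.0769), miR-92a-3p (0.56, adjusted p = 0.261), miR-494-3p (1.01, adjusted p = 0.0663) and miR-409-3p (0.84, adjusted p = 0.105) did not pass.

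**Figure D2:**
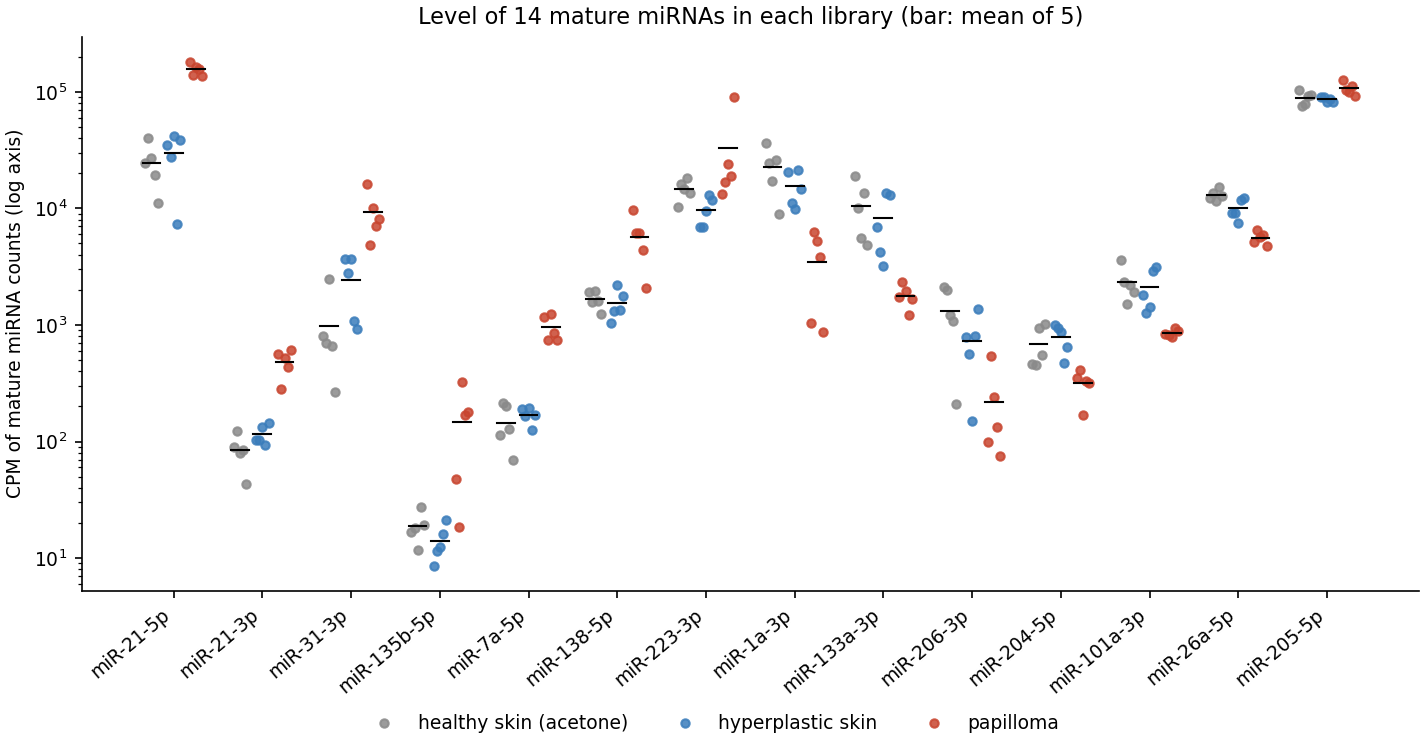
CPM (vertical log axis) of 14 mature miRNAs in each of 5 libraries of healthy skin, hyperplastic skin and papilloma, with bars at the group means. miR-21-5p, miR-21-3p, miR-31-3p and miR-7a-5p lie above hyperplastic skin in all 5 papillomas, miR-1a-3p, miR-133a-3p, miR-204-5p, miR-101a-3p and miR-26a-5p lie below it in all 5, and miR-205-5p differs little.

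Many of the remaining rises were miRNAs of low abundance whose function is little known. Of the 43 mature miRNAs that rose, 19 (44.2%) have a number above 1000 in their name, against 1 of the 35 that fell (2.86%) and 35 of the 292 tested (12.0%). The largest was miR-5115, with 134, 13.7, 591, 132 and 351 CPM in papilloma and 21.2, 21.0, 16.8, 17.3 and 9.84 CPM in hyperplastic skin. Papilloma 3 lay within the hyperplastic range, and papilloma 4 and 6 were the highest. The log2 fold change was 3.82 ± 0.73 (adjusted p = 0.00142), and without papilloma 4 and 6 its mean fell under the minimum of 50 CPM. miR-3473d stood at 258, 204, 647, 324 and 742 CPM in papilloma and 77.2, 61.8, 68.3, 35.8 and 41.8 CPM in hyperplastic skin, without overlap, and rose by 2.93 ± 0.37 (adjusted p = 5.64e-05), or by 2.24 without papilloma 4 and 6. miR-1196-5p (2.72), miR-3473c (2.32), miR-3470a (2.29), miR-5102 (2.29) and miR-1192 (2.28) complete the 10 largest rises among miRNAs with at least 100 CPM in a group. In each of miR-5115, miR-135b-5p, miR-3473d, miR-1196-5p, miR-3470a and miR-1192 papilloma 4 and 6, the shallowest of the 10 libraries, were the highest. Each of them was still called higher after thinning all libraries to the depth of the shallowest, as were 61 of the 71 features that rose. Thinning cannot correct counts that did not scale with depth in the first place, and their part in these rises was not tested.

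The deposited counts, before any scaling, give another view of the same features. Of the 71 features that rose, 33 had a higher mean deposited count in papilloma, with a median ratio of papilloma to hyperplastic skin of 0.992, against 0.377 over all 579 features. With no scaling for depth, which shifted the median log2 fold change of all features by -1.42, 6 of the 71 were called higher, namely miR-21-5p, miR-135b-5p, miR-7a-5p, miR-3473d, miR-1196-5p and miR-5115. The deposited counts of miR-21-5p were 408046, 338478, 210941, 371889 and 153784 in papilloma and 132784, 166633, 194290, 52501 and 157499 in hyperplastic skin. Those of miR-7a-5p were 2636, 1809, 1602, 2051 and 838 in papilloma and 724, 1000, 900, 901 and 685 in hyperplastic skin. In both, papilloma 6, the shallowest library, was the papilloma that fell among the hyperplastic counts. For miR-3473c, whose fold change after scaling is nearly as large, the counts were 1336, 1308, 1956, 3061 and 4165 in papilloma and 2148, 2398, 1539, 931 and 474 in hyperplastic skin and overlapped widely. It lost its call without hyperplastic 7 and 8 (1.80, adjusted p = 0.0563) and without papilloma 4 and 6 (1.43, adjusted p = 0.0747).

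**Figure D3:**
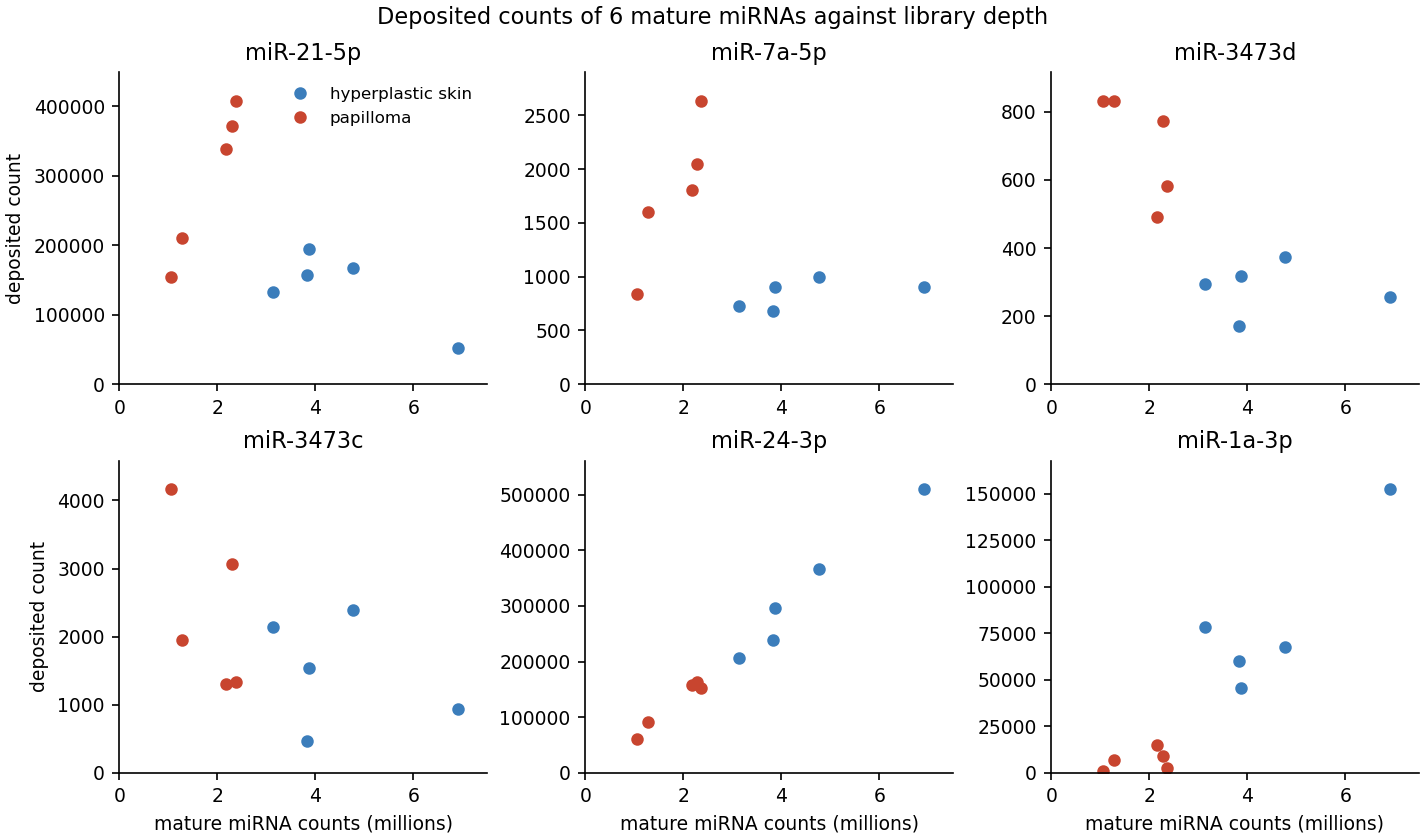
Deposited counts (vertical axis) against the number of mature miRNA counts in the library (horizontal axis, in units of 1e6), for 6 mature miRNAs, 1 point per library. miR-24-3p follows depth across both groups, miR-21-5p, miR-7a-5p and miR-3473d are mostly higher in the shallower papillomas, and miR-1a-3p is lower in papilloma than in every hyperplastic library.

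The largest falls were those of striated muscle. All 7 tested members of that list fell, with a median log2 fold change of -2.02, where 12.0% of mature miRNAs tested fell. miR-1a-3p, which drives muscle differentiation, stood at 1037, 6217, 5254, 3841 and 865 CPM in papilloma and 20522, 11133, 9844, 21296 and 14797 CPM in hyperplastic skin. The groups did not overlap, and papilloma 1 and 6 lay well under the other papillomas. The log2 fold change was -2.17 ± 0.49 (adjusted p = 0.00356). miR-133a-3p, transcribed with miR-1a, stood at 1739, 2324, 1939, 1221 and 1678 CPM in papilloma and 6860.1, 4249, 3228, 13593 and 13044 CPM in hyperplastic skin and fell by 2.20 ± 0.41 (adjusted p = 0.00123). Its papilloma values lay close together, while its hyperplastic values split, with hyperplastic 7 and 8 the highest.

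The remaining muscle miRNAs also fell, with log2 fold changes of -2.22 (miR-133b-3p), -2.02 (miR-1a-2-5p), -1.96 (miR-133a-5p), -1.80 (miR-1a-1-5p) and -1.75 (miR-206-3p). miR-206-3p, a miRNA of skeletal muscle and its satellite cells, overlapped between the groups, at 99.98, 538, 242, 134 and 74.9 CPM against 793, 558, 149, 799.5 and 1377 CPM. Its adjusted p of 0.0439 was lost without any 1 of hyperplastic 1, 7 and 8 or papilloma 1, 4, 5 and 6. The list's summed level was 3503 to 10010 CPM in papilloma, 14596 to 40977 in hyperplastic skin and 16629 to 63575 in healthy skin. Without hyperplastic 7 and 8 miR-133a-3p (-1.45, adjusted p = 0.0283), miR-1a-3p (-2.03, adjusted p = 0.0317) and miR-1a-2-5p (-1.49, adjusted p = 0.0283) still fell. The other 4 lost their calls, miR-133b-3p (-1.33, adjusted p = 0.0632), miR-133a-5p (-1.29, adjusted p = 0.0667), miR-1a-1-5p (-1.31, adjusted p = 0.0570) and miR-206-3p (-1.21, adjusted p = 0.281). How much muscle each biopsy held was not measured apart from these miRNAs.

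Connective tissue and smooth muscle miRNAs had smaller falls, and most of these rested on hyperplastic 7 and 8. Of the fibroblast and mesenchyme list 3 of 15 tested members fell, near the 12.0% of all mature miRNAs tested, with a median of -0.30. miR-29c-5p, the minor arm of a hairpin whose main arm represses collagens, stood at 80.1, 59.3, 59.1, 34.9 and 74.9 CPM in papilloma and 139, 138, 101, 244 and 287 CPM in hyperplastic skin, without overlap, and fell by 1.56 ± 0.30 (adjusted p = 0.00142). The main arm, miR-29c-3p, fell by 0.81 ± 0.22 (adjusted p = 0.0118) from 20893 ± 6608 to 11885 ± 1163 CPM (SD, n = 5 each), and miR-199b-5p fell by 0.82 ± 0.24 (adjusted p = 0.0195). In the smooth muscle and pericyte list miR-145-5p, which promotes the contractile state of smooth muscle, was the 1 of 3 that passed. It stood at 20850.1, 18103, 24242, 18336 and 19698 CPM in papilloma and 25889, 27456, 22062, 45157 and 48074 CPM in hyperplastic skin (-0.74 ± 0.23, adjusted p = 0.0256). Papilloma 4 overlapped hyperplastic 5, and hyperplastic 7 and 8 were far above the rest.

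Without hyperplastic 7 and 8 miR-29c-5p still fell (-1.06, adjusted p = 0.0307), while miR-29c-3p (-0.48), miR-199b-5p (-0.49) and miR-145-5p (-0.33) did not pass (adjusted p = 0.160, 0.181 and 0.339). The call of miR-145-5p was also lost without any 1 of hyperplastic 7 and 8 or papilloma 5 and 6, and that of miR-199b-5p without hyperplastic 8 or papilloma 6. The summed level of the fibroblast list was 246004 and 241314 CPM in hyperplastic 7 and 8, 134545 to 142939 in the other hyperplastic libraries and 125399 to 137265 in papilloma. The endothelial pair miR-126-5p and miR-126-3p had log2 fold changes of -0.08 and -0.35 and neither passed. The erythroid list (miR-451 and both arms of miR-144) had values of 0.81, 0.99 and 1.08, none past the test.

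miR-204-5p, which lies in an intron of Trpm3, stood at 352, 408, 169, 329 and 321 CPM in papilloma and 1001, 939, 879, 474 and 648 CPM in hyperplastic skin. The groups were apart, with hyperplastic 7 and 8 here the lowest of their group. It fell by 1.32 ± 0.31 (adjusted p = 0.00441), and its log2 fold change without those libraries was -1.59 (adjusted p = 0.0143). Its close relative miR-211-5p, with the same seed, had -1.41 (adjusted p = 0.135), and reads of the pair could have been shared. Without papilloma 4 and 6 the log2 fold change of miR-204-5p was -1.08 (adjusted p = 0.0598).

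In the list of miR-26 and miR-101, whose members share the target Ezh2, 4 of 5 tested fell, where 12.0% of mature miRNAs tested did, and the median was -0.84. miR-101a-3p stood at 845, 820.0, 794, 939 and 880.5 CPM in papilloma and 1807, 1275, 1425, 2918 and 3149 CPM in hyperplastic skin and fell by 1.31 ± 0.29 (adjusted p = 0.00356). All 5 papilloma values lay under every hyperplastic one, and hyperplastic 7 and 8 were the highest. Without that pair miR-101a-3p (-0.84, adjusted p = 0.0705), miR-101c (-0.80, adjusted p = 0.120), miR-26a-5p and miR-26b-5p did not pass. miR-101c fell by 1.30 (adjusted p = 0.00855), and miR-101b-3p had -0.59 (adjusted p = 0.0923). miR-26a-5p stood at 5196, 6503, 5637, 5903 and 4754 CPM in papilloma and 9211, 9221, 7456, 11840.0 and 12258 CPM in hyperplastic skin, without overlap, and fell by 0.84 ± 0.18 (adjusted p = 0.00304). miR-26b-5p, with the same seed, fell by 0.69 (adjusted p = 0.0321), with papilloma 3 inside the hyperplastic range.

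In the list of miR-99, miR-100 and miR-125, of which the former are known to target mTOR, 5 of 8 tested fell with a median of -0.68, where 12.0% of mature miRNAs tested fell. miR-99a-3p stood at 175, 206, 143, 118 and 145 CPM in papilloma and 293, 347, 277, 341 and 399.8 CPM in hyperplastic skin, without overlap, and fell by 1.07 ± 0.23 (adjusted p = 0.00267). It was still lower without hyperplastic 7 and 8 (-0.97) and without papilloma 4 and 6 (-0.96). The abundant arm miR-99a-5p fell by 0.75 from 33709.7 ± 6448 to 20039 ± 2423 CPM (SD, n = 5 each), and the other members that fell were miR-100-5p (-0.60), miR-125a-5p (-0.78) and miR-125b-2-3p (-0.94). miR-99b-5p and miR-99b-3p, from another locus, had 0.31 and 0.67 and did not pass, and miR-125b-5p, the second most abundant of the list, had -0.25. Without hyperplastic 7 and 8, and likewise without papilloma 4 and 6, miR-99a-3p was the 1 member of the list that passed. The seed ACCCGUA of miR-99a-5p, miR-99b-5p and miR-100-5p was therefore carried by 2 members that fell and 1 that did not pass.

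Other lists held 1 or 2 members that fell, against 12.0% of all mature miRNAs tested. They were miR-30a-5p (-0.64) and miR-30b-5p (-0.54) of the 7 tested in the miR-30 family, miR-497-5p (-0.84) and miR-195-5p (-0.72), neighbours in 1 cluster, of the 9 tested in the miR-15 and miR-16 seed family, miR-181c-5p (-0.76) of 6, and miR-10b-5p (-0.80) of the 4 tested in the Hox clusters. The neural miRNA miR-338-3p stood at 113, 154, 168, 174 and 165 CPM in papilloma and 274, 199, 242, 566 and 445 CPM in hyperplastic skin, without overlap, and fell by 1.16 ± 0.29 (adjusted p = 0.00736). It did not pass without hyperplastic 7 and 8, its highest libraries (-0.65, adjusted p = 0.142). Named after their values were seen, miR-378-3p (-0.79), miR-378-5p (-0.81) and miR-378b (-0.89), relatives known from metabolism and muscle, also fell. None of the members of these lists, miR-338-3p or the miR-378 relatives passed without hyperplastic 7 and 8, for example miR-30a-5p (-0.67, adjusted p = 0.0570) and miR-10b-5p (-0.52, adjusted p = 0.132). A fit without that pair has fewer libraries and so less power. In it the log2 fold changes of miR-30a-5p, miR-181c-5p (-0.80), miR-195-5p (-0.71) and miR-497-5p (-0.77) changed little. Those of miR-30b-5p (-0.34), miR-10b-5p and miR-338-3p shrank. Calls lost by leaving out 1 library were those of miR-30b-5p (hyperplastic 7 or 8, papilloma 1, 4, 5 or 6), miR-497-5p (hyperplastic 8 or papilloma 6), miR-181c-5p (papilloma 5) and, from the preceding list, miR-125b-2-3p (hyperplastic 8, papilloma 1, 3, 5 or 6). miR-26a-5p, miR-26b-5p, miR-99a-5p, miR-100-5p and miR-125a-5p were likewise picked from their lists after their values were seen.

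Keratinocyte miRNAs did not pass the test. miR-205-5p stood at 125320.0, 104359, 100517, 112918 and 92952 CPM in papilloma and 90927, 91176, 82527, 87054 and 82000.0 CPM in hyperplastic skin, and all 5 papillomas lay above all 5 hyperplastic libraries. Its log2 fold change of 0.31 ± 0.20 was small and did not pass (adjusted p = 0.265), and its sign turned under looser filters (-0.24 and -0.66). miR-203-3p, a brake on the stem cell factor p63, ranged from 68793 to 88973 CPM in papilloma and from 44217 to 91434 CPM in hyperplastic skin, and its log2 fold change of 0.12 ± 0.25 changed sign with the scaling. miR-24-3p, another of the most abundant miRNAs, had 0.09 ± 0.16, with the same instability of sign. miR-29a-3p, with the highest mean in hyperplastic skin at 96177 ± 33833 CPM (SD, n = 5), had -0.46 ± 0.24 (adjusted p = 0.187) against 69974 ± 4015 CPM in papilloma. It passed as lower without hyperplastic 1 (-0.71, adjusted p = 0.0433) or hyperplastic 2 (-0.72, adjusted p = 0.0354) and with mature miRNA totals and no factor (-0.59, adjusted p = 0.0230). It also passed with edgeR's default filter (-1.05, adjusted p = 0.0180) and with no filter (-1.51, adjusted p = 0.00325). Hyperplastic 7 and 8, at 141143 and 123934 CPM, stood above the range of 69317 to 75808 CPM in the other 3, where miR-205-5p was higher than miR-29a-3p. Its log2 fold change without hyperplastic 7 and 8 was -0.06.

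No member passed among the 16 tested of the let-7 family (median -0.25), the 8 of the miR-200 family (0.38), which keeps epithelial character, the 4 of the miR-183 cluster (0.29), the 7 of the miR-23, miR-27 and miR-24 clusters (0.08), the 3 of the p53-induced miR-34 family (0.29) or miR-221-3p and miR-222-3p (0.04). In the miR-193 and miR-365 list miR-193b-3p had -0.38 ± 0.21 (adjusted p = 0.206), miR-365-3p -0.41 ± 0.28 (adjusted p = 0.284) and miR-193-3p 0.10. miR-193b-3p stood at 3285, 3734, 3254, 3096 and 2767 CPM in papilloma and 3684, 2948, 3729, 6041 and 4537 CPM in hyperplastic skin, with overlapping ranges. It passed as lower without hyperplastic 2 (-0.65) and with mature miRNA totals and no factor. With edgeR's default filter miR-193b-3p (-0.95, adjusted p = 0.0188) and miR-365-3p (-0.96, adjusted p = 0.0335) passed as lower, and both did with no filter. These filters shifted the median log2 fold change down.

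**Figure D4:**
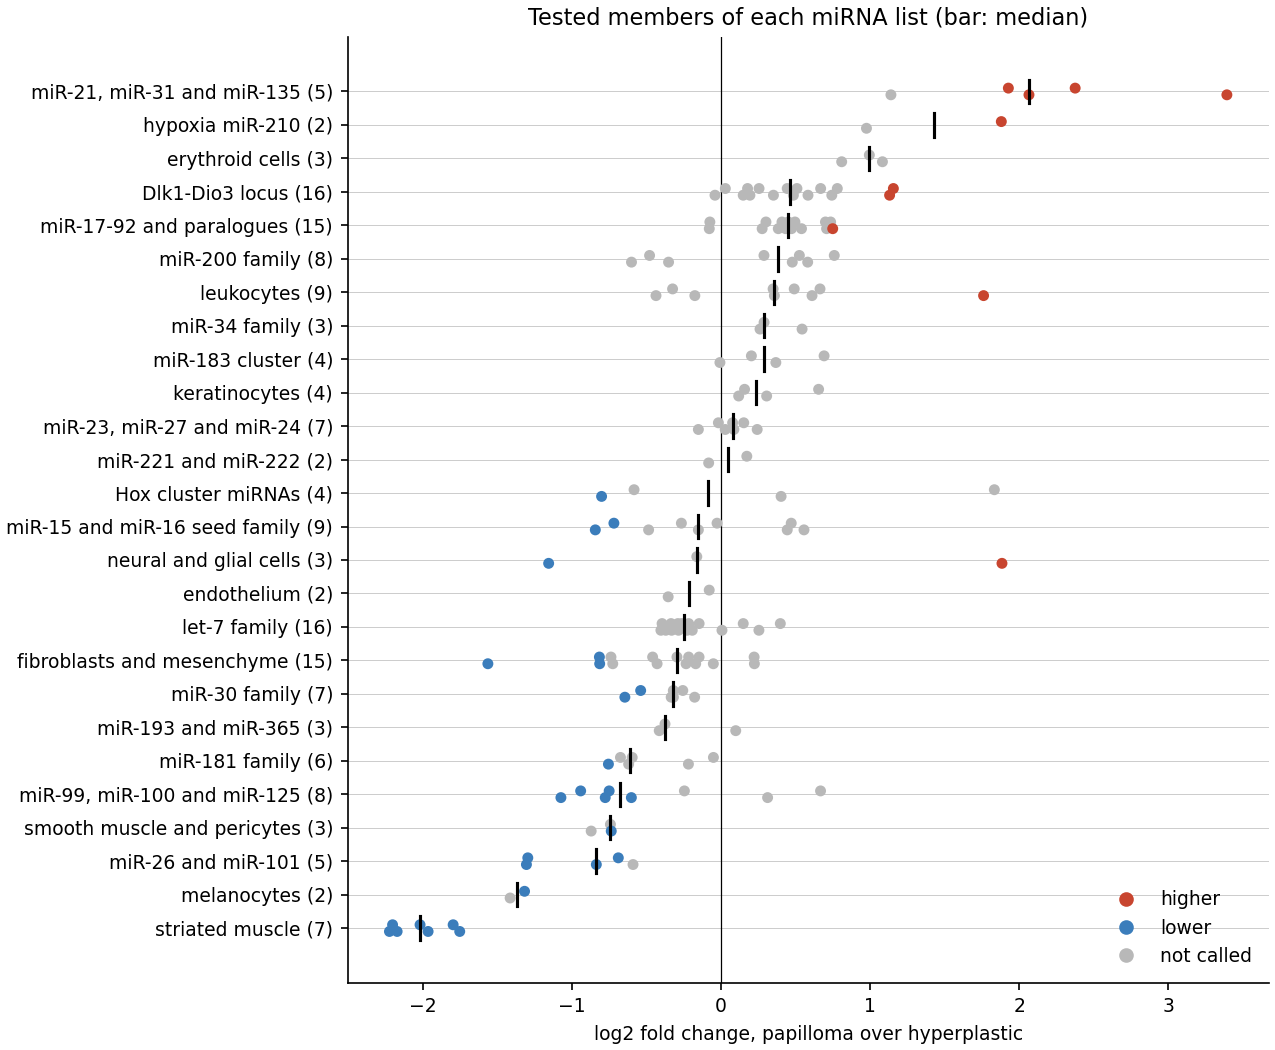
Log2 fold change of papilloma over hyperplastic skin (horizontal axis) for each tested member of 26 miRNA lists (vertical axis, number tested in brackets), with a bar at each list's median and colour for members that passed the test. The striated muscle list lies lowest with all 7 members called, the list of miR-21, miR-31 and miR-135 lies highest with 4 of 5 called, and most other lists lie near 0 with few calls.

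The balance between the arms of a hairpin was tested in the 155 hairpins with a mean of at least 20 counts for each arm, as the log2 ratio of 5p to 3p counts with 0.5 added to each. It differed in 16 (10.3%, limma, adjusted p under 0.05), and all 16 moved towards the arm that is minor in hyperplastic skin, as did 106 of the 155 tested. miR-15a moved from a log2 ratio of 4.30 ± 0.53 in hyperplastic skin to 3.23 ± 0.15 in papilloma (SD, n = 5 each), a difference of -1.07 ± 0.32 (SE, adjusted p = 0.0353). The largest moves, of miR-320 (2.50), miR-489 (2.19) and miR-1249 (2.16) towards 5p and of miR-1930 (-1.86), miR-149 (-1.84), miR-1198 (-1.62) and miR-100 (-1.55) towards 3p, had a minor arm with a mean of 17.2 to 44.6 counts in hyperplastic skin. With both arms at a mean of at least 100 counts 3 of 73 hairpins differed. The number called was 7 without hyperplastic 7 or without papilloma 4, 9 without hyperplastic 1 or papilloma 6, 10 without papilloma 5, and 2 without papilloma 4 and 6.

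Among the other RNA classes, transfer RNA (tRNA) fragments were the most abundant. Entries for tRNA genes made up 25.9% ± 9.07 of all counts in papilloma and 37.1% ± 6.68 in hyperplastic skin (SD, n = 5 each). The shares were 34.3%, 33.7%, 28.3%, 19.6% and 13.6% in papilloma 1, 3, 4, 5 and 6, and 37.4%, 40.9%, 32.4%, 29.1% and 45.9% in hyperplastic 1, 2, 5, 7 and 8, and they overlapped (two-sided exact permutation test, p = 0.0714, adjusted over 12 classes 0.143). Of the 12 classes, those with an adjusted p of 0.0476 were 2 minor ones, miRNA entries that are not mature sequences (0.0337% against 0.00719%) and miscellaneous RNA (0.00298% against 0.000614%), at the smallest p that 5 against 5 allows, 0.00794 before adjustment. Both missed the threshold when any 1 hyperplastic library was left out, where the smallest adjusted p was 0.111. Small nucleolar RNAs (snoRNAs), which guide modification of ribosomal RNA, made up 1.20% ± 0.203 in papilloma and 0.895% ± 0.0952 in hyperplastic skin (exact permutation p = 0.0238, adjusted 0.0952).

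Of 198 tRNA entries tested 27 were lower and 10 higher in papilloma. Among lysine tRNAs 7 of 9 entries with anticodon CTT and 5 of 6 with TTT were lower, where 10.1% of features outside the mature miRNAs were, but these entries are near copies and may count the same reads. The entry chr9.tRNA1035-LysCTT stood at 1436, 752, 669, 481 and 309 CPM in papilloma and 2784, 1814, 3400.2, 2542 and 4523 CPM in hyperplastic skin, without overlap, and fell by 2.04 ± 0.45 (adjusted p = 0.00304). It fell without hyperplastic 7 and 8 (-1.89) and without papilloma 4 and 6 (-1.73) as well. Healthy skin held 1368 ± 739.6 CPM (SD, n = 5). All 3 entries for arginine tRNA with anticodon ACG were lower, with a median of -1.31. chr13.tRNA948-ArgTCG (-2.07) was lower with overlap, and hyperplastic 2 alone held 243 CPM. Its call was lost without papilloma 5 or 6. Higher entries included 3 of 7 for valine AAC, where 9.76% of features outside the mature miRNAs were higher. chr3.tRNA752-GlyCCC rose by 2.34 ± 0.44 (adjusted p = 0.00123) from 17.4 ± 2.60 to 88.3 ± 40.9 CPM (SD, n = 5 each). Without papilloma 4 and 6 its mean fell under the minimum of 50 CPM.

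Of 57 snoRNA entries 14 were higher and 1 lower, where 9.76% and 10.1% of features outside the mature miRNAs passed. FR165730 stood at 695, 492, 322, 180.2 and 366 CPM in papilloma and 159, 145, 159.6, 109 and 149 CPM in hyperplastic skin (1.51 ± 0.30, adjusted p = 0.00168), and FR304431 at 764, 466, 669, 571 and 609 CPM and 294, 234, 256, 176 and 191 CPM (1.42 ± 0.31, adjusted p = 0.00294). Neither overlapped. FR304431 did not pass without hyperplastic 7 and 8 (1.21, adjusted p = 0.0632). Of 4 ribosomal RNA entries 3 were higher, among them ENSMUST00000104719, a 5S RNA gene (1.19). Its call was lost without any 1 of hyperplastic 1, 2, 5, 7 and 8 or papilloma 1, 4, 5 and 6. Of 6 piRNA entries, a class named for germ line RNAs, 1 was lower (FR139333, -1.27, adjusted p = 0.0141). It lies within the 1 snoRNA entry that was lower, FR140401 (-1.20), and both calls were lost without hyperplastic 8. The 17 mitochondrial tRNAs had a median of -0.03 and none passed. ENSMUST00000158360, the hairpin entry of Mir1946a, rose by 2.47, beside a rise of 2.03 for mature miR-1946a.

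The libraries of cSCC and healthy skin, which share no sample with the comparison above, give the values of the same features for a carcinoma against acetone-treated skin. That comparison changes treatment and lesion together, and its tumour libraries are also mostly the shallower ones. It called 46.6% of the 579 features. Of the 43 mature miRNAs that rose in papilloma 42 had a positive log2 fold change in cSCC against healthy skin (41 past the test), and all 35 that fell had a negative one (34 past the test), where 83.6% of the 292 tested had the same sign in both. Over all classes it was 69 of 71 and 55 of 64, where 76.5% of the 579 tested had the same sign. For miR-135b-5p the cSCC value was 6.28, for miR-21-5p 3.51, for miR-7a-5p 3.31, for miR-1a-3p -3.38 and for miR-204-5p -3.26. miR-31-5p, not past the test in papilloma, had 4.16 there. miR-203-3p had -1.06 in cSCC and 0.12 in papilloma. The lysine entry chr9.tRNA1035-LysCTT had -0.73 in cSCC and did not pass there.

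**Figure D5:**
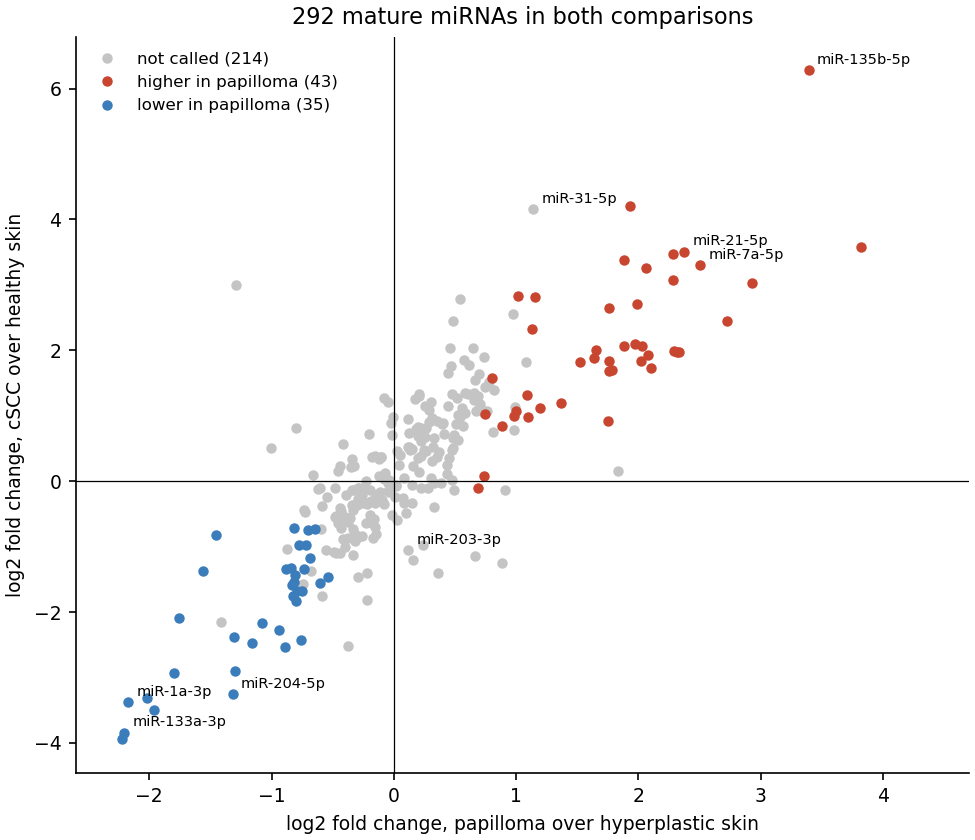
Log2 fold change of cSCC over healthy skin (vertical axis) against that of papilloma over hyperplastic skin (horizontal axis) for 292 mature miRNAs, with colour for those that passed in papilloma. The 35 that fell all lie below 0 on the vertical axis, and 42 of the 43 that rose lie above 0.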

How the data were processed

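Small RNA was measured in 20 skin biopsies. Per the labels' protocols, the Qiagen miRNeasy mini kit gave the RNA, the NEBNext small RNA set for SOLiD gave the libraries, gels were used for size selection, and sequencing was on SOLiD. The authors deposited a table of whole-number read counts per feature and library, not normalized. The genome build was mm9, per the submitters' processing notes. The sources used here do not give the aligner, the counter, the annotation releases or how reads with several matches were counted, so reads of near-identical miRNAs or tRNAs may have been shared. Columns were matched to samples by title and grouped by the lesion in the labels.

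Features with a mean of at least 50 CPM over the 10 libraries entered 1 quasi-likelihood model of all 20 libraries in edgeR 4.0.16 under R 4.3.3, in which the spread is estimated over the 4 groups together. Library size was the mature miRNA count times a TMM factor from mature miRNAs with that minimum. P-values are two-sided and Benjamini-Hochberg adjusted over the 579 features, with 0.05 as the threshold, and the SE of a fold change was computed from the test's F statistic. Arm balance was tested with limma 3.58.1. Shares of counts were tested by exact permutation of the 10 libraries. The scripts were tested on simulated data. Positions were annotated with the GENCODE mouse genes of the build of the sequences.

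Named features are the 10 largest called changes each way among mature miRNAs with at least 100 CPM in a group, at most 2 more called members per list, the 5 most abundant, a few fixed miRNAs, and the 2 largest each way in other classes. For arm balance they are the 5 largest each way, and miR-486 (1.86) and miR-222 (1.58), both towards 5p, belong to them beside those in the report. The members and lists were chosen with earlier results of these data known. Alternatives were other scalings, filters and thresholds, DESeq2 1.42.0, thinning to equal depth, the replicate number as a block and leaving out libraries.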

Additional observations from a re-analysis of the deposited data

Results flagged for a closer look

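The 5 values within each group were checked for 1 library far from the others in 144 groups, and 8 stood out. These groups are of named features and of the shares of RNA classes. Chance alone gives about 1 in 20. In papilloma, miR-1a-1-5p was lowest in papilloma 5 with 359 CPM, against 580 to 648 in the others. miR-223-3p was highest in papilloma 6 with 90762 CPM, against 13171 to 24238. A ribosomal RNA entry was highest in papilloma 4 with 349 CPM, against 78.0 to 136. In hyperplastic skin, miR-409-3p was lowest in hyperplastic 8 with 25.8 CPM, against 80.8 to 95.2, and miR-125b-2-3p was highest there with 147 CPM, against 66.4 to 85.3. chr3.tRNA752-GlyCCC was highest in hyperplastic 7 with 21.9 CPM, against 15.7 to 17.0, and the snoRNA entry FR165730 was lowest there with 109 CPM, against 145 to 160. chr13.tRNA948-ArgTCG was highest in hyperplastic 2 with 243 CPM, against 15.4 to 79.5.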

How the results depend on the processing

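The main counts were 71 higher and 64 lower. Under other settings they were 46 and 84 with mature miRNA totals and no factor, 177 and 211 of 1503 features with edgeR's default filter, 93 and 387 of 2127 with no filter, 31 and 48 of 342 at a minimum of 200 CPM, 46 and 38 of 292 with mature miRNAs alone, and 14 and 3 with a log2 fold change of at least 1. They were 29 and 8 without hyperplastic 7 and 8, and 46 to 72 and 28 to 77 with 1 library left out. Chosen after seeing the data were no scaling for depth (6 and 445) and leaving out papilloma 4 and 6 (34 and 14). DESeq2 size factors gave 59 and 71, DESeq2 71 and 86, and thinning 63 and 68. The default filter shifted the median log2 fold change by -0.55 and no filter by -0.97. All 64 lower features were called under both, but of the 71 higher ones 33 were called with the default filter and 17 with no filter. At the minimum of 200 CPM 31 of the 34 higher ones still tested were called, and 47 of 47 lower ones. After thinning to equal depth 61 of the 71 higher and 63 of the 64 lower ones were called. Groups share the numbers 1 and 5, and the labels do not say that these pair samples. Deviations from the group means correlated at -0.079 for number 1 and 0.309 for number 5 over 579 features. The replicate block, the number as a term, called 15 higher and 1 lower (miR-1a-3p), and 0 hairpins in arm balance. Arm balance called 3 hairpins at a minimum of 100 counts, 4 without hyperplastic 7 and 8, 2 without papilloma 4 and 6, and 7 to 21 with 1 library left out, against 16.

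With no scaling for depth the sign turned for miR-223-3p (-0.037), miR-92a-3p (-0.66), miR-494-3p (-0.37), miR-409-3p (-0.37), miR-31-5p (-0.29), miR-205-5p (-1.11), miR-203-3p (-1.28), miR-24-3p (-1.37), a ribosomal RNA entry (-0.36), ENSMUST00000104719 (-0.43) and FR304431 (-0.0035). With edgeR's default filter it turned for miR-205-5p (-0.24), miR-203-3p (-0.42) and miR-24-3p (-0.48). With no filter it turned for these (-0.66, -0.82 and -0.91) and miR-92a-3p (-0.20), and with totals alone for miR-203-3p (-0.066) and miR-24-3p (-0.072). It also turned for miR-203-3p without hyperplastic 7 and 8 (-0.12) and with 1 library left out (-0.071 to 0.20), and for miR-24-3p (-0.14 to 0.17). These scalings and filters also shifted the median log2 fold change of the features in the main fit. The shift was -1.42 with no scaling, -0.55 with the default filter, -0.97 with no filter and -0.17 with totals alone. The cause of the sign changes was not tested beyond these shifts.

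Shares of counts differed by 0.0265 points for miRNA entries that are not mature and 0.00236 for miscellaneous RNA. Relative to mature miRNA counts, in CPM, the differences were 329.9 and 29.2 and passed no longer (adjusted p = 0.0873), without hyperplastic 7 and 8 they were 0.0245 and 0.00218, and without papilloma 4 and 6 0.0102 and 0.000985. With 1 library left out they ranged from 0.0163 to 0.0319 and 0.00134 to 0.00285. Mitochondrial tRNA turned to -662 CPM and piRNA to -131 CPM, with ranges of -0.0338 to 0.106 and -0.00732 to 0.0285 points with 1 library left out. The snoRNA difference of 0.303 points ranged from 0.247 to 0.375 and passed without papilloma 5. The sign shared with cSCC was 91.9% of called features, 97.4% with edgeR's default filter and 97.6% with mature miRNAs alone. The shallowest library held 1060615 mature miRNA counts, and features with a mean under 50 CPM over the 10 libraries were not tested.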

Other observations

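Leaving out either pair of libraries, hyperplastic 7 and 8 or papilloma 4 and 6, left 19 features higher and 6 lower in both fits. The 16 mature miRNAs among the higher ones include miR-21-5p, miR-21-3p, miR-7a-5p, miR-3473d and miR-709 (2.08). The 6 lower ones were miR-133a-3p, miR-1a-3p, miR-1a-2-5p, miR-29c-5p, miR-99a-3p and chr9.tRNA1035-LysCTT. Among the papillomas, papilloma 4 held the highest CPM for 29 of the 71 features that rose and papilloma 3 for 0, while papilloma 3 was the lowest for 28, against 114, 131 and 101 of all 579 tested. Of the 64 that fell, papilloma 6 was the lowest of the papillomas for 34 and papilloma 1 the highest for 30, against 247 and 198 of all 579 tested.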
